A study of Mus musculus with 9 samples.

Results

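The genes described are 10 transcription factors of the megakaryocyte lineage, Gata1, Zfpm1, Gata2, Gfi1b, Tal1, Runx1, Fli1, Etv6, Nfe2 and Mef2c, in mouse bone marrow megakaryocytes (mMKs) before and after ionizing radiation (IR). They were chosen by gene name, and all 16 array probes that carry these names were used. All 16 probes passed the filter on dim signals, so the factors make up 10 of the 29410 genes tested. The arrays came from male mice in 3 groups of 3, a sham-irradiated control (Ctrl) and mice at 1 and 3 days post IR (dpi), with 5 Gy of γ-rays given to both irradiated groups. The labels name no strain, genotype or age, and the methods describe wild-type C57BL/6 mice. The experiments at each time used different donors. By the study's methods, mMKs were enriched from marrow by selection for CD41 and then CD42d, and RNA was taken from sorted mMKs. The arrays are Agilent 1-colour arrays with 60-base probes.

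These factors work as a network rather than one by one. GATA1 opens and drives the genes of megakaryocytes and red cells together with its cofactor FOG1, the product of Zfpm1, while GATA2 acts earlier and is replaced by GATA1 as cells mature. TAL1 and GFI1B sit in GATA1 complexes as activator and repressor, RUNX1 and the ETS factor FLI1 favour the megakaryocyte over the red cell fate, and NF-E2 is needed for platelet release. Several of them are not particular to megakaryocytes: Gata1, Zfpm1, Tal1 and Gfi1b are also used by red cell precursors, Gata2 by stem cells and mast cells, and Mef2c by B cells.

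All values are log2 intensities of a probe, set so that the 75th percentile of each array is 0. Between 69.1% (Ctrl replicate 1) and 81.8% (3 dpi) of spots were well above background, and every probe of the 10 factors was well above background on all 9 arrays. A gene was called when limma gave a Benjamini-Hochberg adjusted p under 0.05 over all genes and the change was at least 2-fold. Changes under 2-fold are common among regulators, so genes that passed the adjusted p alone were counted as well. With 3 arrays a group the precision is limited, and a two-sided exact permutation test cannot reach a p below 0.10. Of the megakaryocyte markers 14 of 14, among them Itga2b (CD41), Gp9 and Pf4, were well above background on all 9 arrays. So were all 12 B cell, 12 neutrophil and monocyte, 12 macrophage and 13 stromal markers, so this does not set the purity of the samples.

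At 1 dpi the factors as a group lay below Ctrl. Of the 10 factors, 9 were lower past the adjusted p and 0 were higher, against 21.1% of all genes lower and 34.8% higher. Called at 2-fold were 2 factors, Zfpm1 and Runx1, both lower, against 2.87% of all genes lower and 12.3% higher. Runx1 is counted by its brightest probe, at −1.001, while its other probes were higher past the adjusted p, at 0.29 and 0.85. At 3 dpi 8 of 10 were lower past the adjusted p and 0 higher, where 15.1% of all genes were lower and 16.9% higher. Called at 3 dpi were 3 factors, Zfpm1, Gfi1b and Tal1, all lower, against 1.82% of all genes lower and 6.98% higher. The median log2 fold change of the factors was −0.64 at 1 dpi and −0.67 at 3 dpi. Both comparisons use the same Ctrl arrays. In these bulk samples, fewer cells that carry a transcript and less of it per cell cannot be told apart.

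The scaling bears on these sizes, because over all genes the median log2 fold change was 0.25 at 1 dpi, 0.11 at 3 dpi and −0.11 from 1 to 3 dpi rather than 0. Relative to that median, the factors' median was −0.89 at 1 dpi, −0.78 at 3 dpi and −0.07 from 1 to 3 dpi. The 1 dpi arrays were also the dimmest, with a 75th percentile of 9.33 to 9.45 on the log2 scale, against 10.03 to 10.66 in Ctrl. Of all genes called at 1 dpi, 81.1% were higher with this scaling, but 56.2% after quantile normalization, 48.8% after median scaling, 87.9% with normexp background, 68.8% after normexp with quantile normalization and 49.8% in the deposited log2 table. At 3 dpi that share was 79.4%, and 66.8% in the deposited table. The sizes of the factors shifted with the scaling, to a median of −0.96 at 1 dpi with median scaling, while all 10 log2 fold changes against Ctrl were below 0 at both times under each of these scalings and in the deposited table. The number lower past the adjusted p at 1 dpi was 10 in each of these alternatives to the 75th percentile scaling. At 3 dpi it was 9 after quantile normalization and in the deposited table, 10 after normexp with quantile normalization and 8 in the others.

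**Figure D1:**
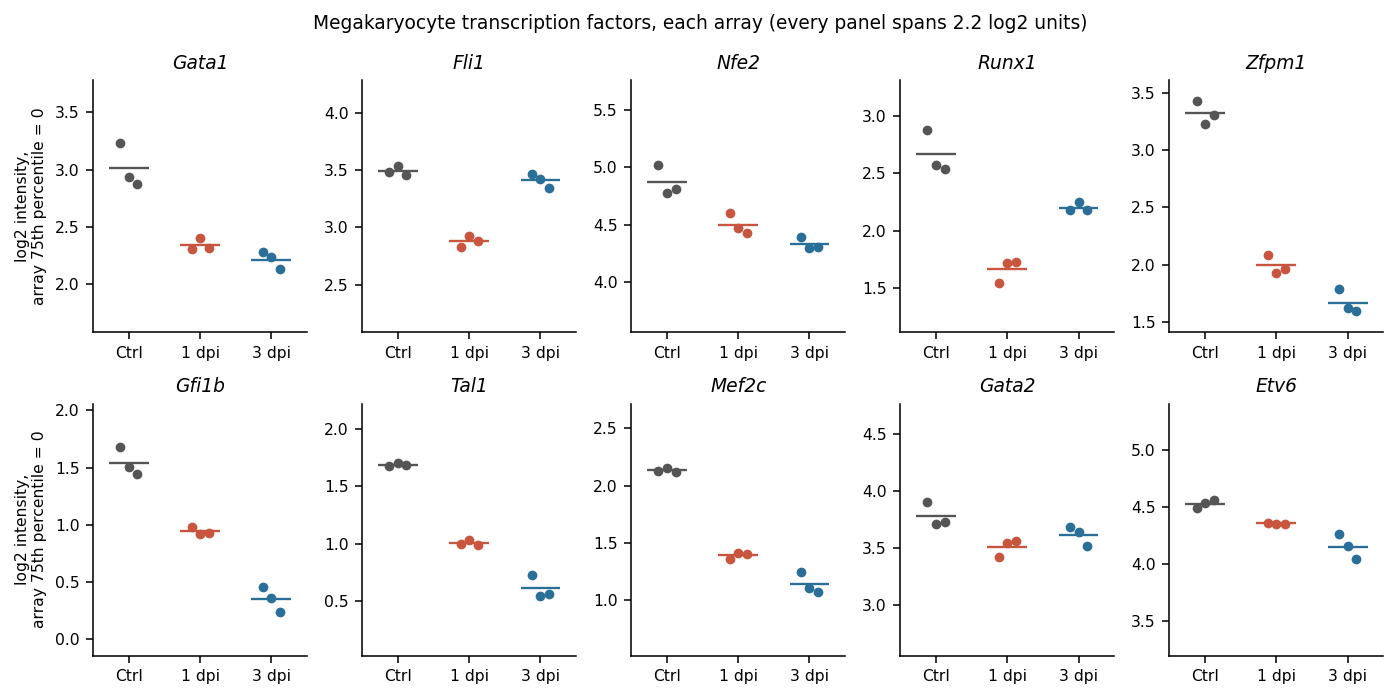
Log2 intensity of the 10 factors (array 75th percentile at 0) on each of the 9 arrays in Ctrl, 1 dpi and 3 dpi. Dots are arrays and bars are group means of 3. All 3 arrays at 1 dpi lie below all 3 Ctrl arrays in every panel, and the share of all genes that do so was not counted. Each panel shows the brightest probe, and probes 2 and 3 of Runx1, not drawn here, lie above Ctrl at 1 dpi. Fli1 overlaps Ctrl again at 3 dpi.

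Among the GATA factors, Gata1 read 3.23, 2.93 and 2.88 in Ctrl, 2.30, 2.40 and 2.31 at 1 dpi and 2.28, 2.23 and 2.13 at 3 dpi. Both irradiated groups lay wholly below Ctrl, and the 3 dpi arrays lay just under the 1 dpi arrays. Its log2 fold change was −0.67 ± 0.10 (SE; limma adjusted p = 0.00100) at 1 dpi and −0.80 ± 0.10 (limma adjusted p = 0.000649) at 3 dpi, with an interval from −1.03 to −0.57 at the later time. The difference between 1 and 3 dpi, −0.13 ± 0.10, was within the spread (limma adjusted p = 0.345). Gata2, the earlier GATA factor, spanned 3.71 to 3.90 in Ctrl, 3.42 to 3.57 at 1 dpi and 3.52 to 3.68 at 3 dpi. Its groups were close, and the 1 and 3 dpi ranges overlapped. The log2 fold change of Gata2 was −0.27 ± 0.08 at 1 dpi (limma adjusted p = 0.0241) and −0.16 ± 0.08 at 3 dpi, which did not pass (limma adjusted p = 0.168). At 3 dpi 3 of 22 alternatives placed Gata2 past the adjusted p, and its log2 fold change ran from −0.29 to −0.10. At 1 dpi it missed the adjusted p in 3 of 22 alternatives, without 1 dpi replicate 1 (0.0823 in limma), without 1 dpi replicate 2 and with the methods' t-test, within a range of 0.000967 to 0.0823.

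Zfpm1, the GATA1 cofactor, showed a deeper fall than the GATA factors in log2 fold change. It read 3.43, 3.22 and 3.31 in Ctrl, 2.09, 1.93 and 1.97 at 1 dpi and 1.78, 1.62 and 1.59 at 3 dpi. The 3 groups were fully separate, with 3 dpi lowest. The log2 fold change was −1.33 ± 0.08 at 1 dpi, 2.51-fold lower (limma adjusted p = 1.74e-05), and −1.65 ± 0.08 at 3 dpi, 3.15-fold lower (limma adjusted p = 5.48e-06). Of all genes tested at 3 dpi, 0.507% had a lower log2 fold change than Zfpm1. It was the only factor called at both times with the 75th percentile scaling, though Mef2c was too with median scaling and in the deposited table. At 3 dpi Zfpm1 was called in all 22 alternatives. At 1 dpi it was under 2-fold in 2 of them, at −0.95 with the mean of its probes and −0.59 in the deposited table. After quantile normalization the dimmer probe of Zfpm1 also had −0.59 at 1 dpi, against −1.36 for the brighter probe used here. The probe behind the deposited value is not stated.

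Gfi1b and Tal1, which act with GATA1 in the same complexes, fell in steps. Gfi1b read 1.68, 1.50 and 1.44 in Ctrl, 0.98, 0.92 and 0.93 at 1 dpi and 0.46, 0.36 and 0.24 at 3 dpi. Tal1 read 1.68, 1.70 and 1.68 in Ctrl, 1.00, 1.03 and 0.99 at 1 dpi and 0.73, 0.54 and 0.56 at 3 dpi. For both genes no array of one group reached into another. The log2 fold change of Gfi1b was −0.60 ± 0.09 at 1 dpi and −1.19 ± 0.09 at 3 dpi (limma adjusted p = 0.000813 and 3.23e-05). That of Tal1 was −0.68 ± 0.07 and −1.08 ± 0.07 (limma adjusted p = 0.000118 and 1.29e-05). The further fall from 1 to 3 dpi was itself past the adjusted p for both, at −0.59 ± 0.09 for Gfi1b (limma adjusted p = 0.00122) and −0.40 ± 0.07 for Tal1 (limma adjusted p = 0.00218). With median scaling this step did not pass for either gene, at −0.40 for Gfi1b and −0.20 for Tal1.

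**Figure D2:**
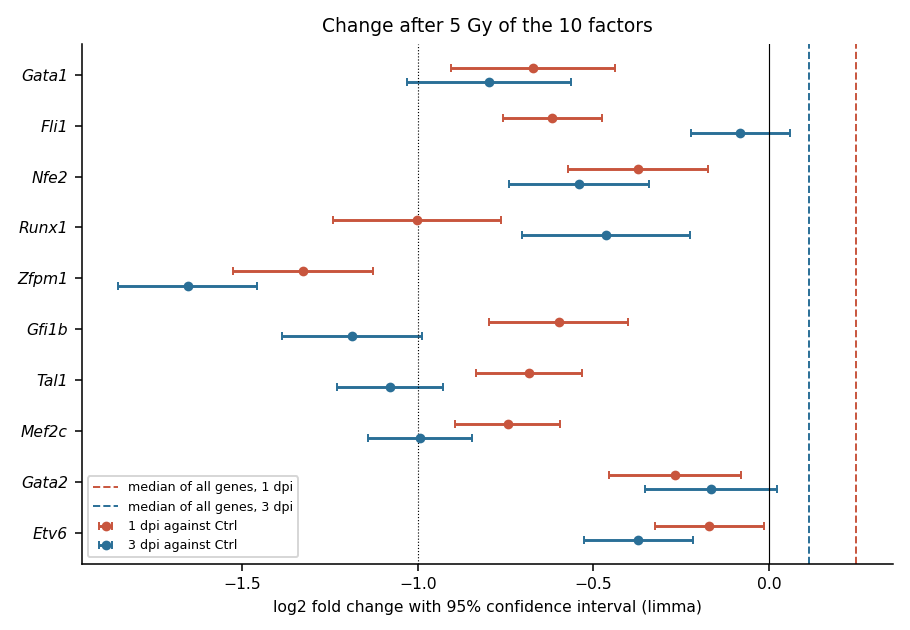
Log2 fold change of the 10 factors at 1 and 3 dpi against Ctrl (dots, 3 arrays against 3) with 95% confidence intervals from limma; dashed lines give the median of all 29410 genes and the dotted line a 2-fold fall. Zfpm1 lies lowest at both times (−1.33 and −1.65), while Fli1 moves from −0.62 at 1 dpi to −0.08 at 3 dpi.

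The probes of Runx1 moved in opposite directions at 1 dpi. These 3 probes lie on the minus strand of chromosome 16 and are numbered from the brightest. Since the probes are what differs, the first 30 bases of each 60-base probe are shown, 5′ to 3′, as the array files give them. Probe 1 is at chr16:92602576-92602635, probe 2 at chr16:92605785-92605844 and probe 3 at chr16:92697238-92697297 of the build mm9. The array files annotate probes 1 and 2 to transcript variant 3 and probe 3 to transcript variant 4, and on this strand probe 1 is the most 3′.
Runx1 probe 1: tccctctttcagccaggtcggtatagccaa
Runx1 probe 2: caggagggcccttggaggccaccaggaaga
Runx1 probe 3: tgaacttttctccgattgtttcttttgaca
Whether each probe lies in coding sequence or not is not annotated in the files used here.

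Runx1 probe 1, which stands for the gene in the counts above, read 2.88, 2.58 and 2.54 in Ctrl, 1.55, 1.72 and 1.73 at 1 dpi and 2.18, 2.25 and 2.18 at 3 dpi. Probe 2 read 2.01, 1.93 and 1.97 in Ctrl, 2.30, 2.28 and 2.19 at 1 dpi and 2.09, 1.91 and 1.85 at 3 dpi. Probe 3 read −2.39, −2.62 and −2.63 in Ctrl, −1.63, −1.68 and −1.79 at 1 dpi and −2.58, −2.42 and −2.33 at 3 dpi. At 1 dpi, all arrays of probe 1 lay below Ctrl while all arrays of probes 2 and 3 lay above it, and at 3 dpi the last 2 probes overlapped Ctrl.

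Fitted with all 44300 kept probes, Runx1 probe 1 had a log2 fold change of −1.001 ± 0.10 at 1 dpi (limma adjusted p = 0.000162), probe 2 of 0.29 ± 0.08 (limma adjusted p = 0.0158) and probe 3 of 0.85 ± 0.10 (limma adjusted p = 0.000281). The log2 ratio of probe 2 to probe 1 within an array rose by 1.29 and that of probe 3 to probe 1 by 1.85 (exact permutation p = 0.10 for each, the smallest possible). The fall of probe 1 and the rise of probe 3 held their direction at 1 dpi under each scaling tried, with probe 3 between 0.53 and 0.85. The rise of probe 2 did not, since it read −0.03 with median scaling. The mean of the 3 probes gave a log2 fold change of 0.05 at 1 dpi for Runx1, so the call of this gene rests on its brightest probe. At 3 dpi probe 1 had −0.47 ± 0.10 (limma adjusted p = 0.0103), probe 2 −0.02 ± 0.08 and probe 3 0.10 ± 0.10, and the last 2 did not pass (limma adjusted p = 0.869 and 0.459). Without Ctrl replicate 1 the log2 fold change of probe 1 at 1 dpi was −0.89, which is under 2-fold. At 3 dpi Runx1 missed the adjusted p in 2 of 22 alternatives, and its log2 fold change ran from −0.59 to −0.13. The ratio within an array shows that the probes changed unequally, and which transcripts they read was not tested.

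**Figure D3:**
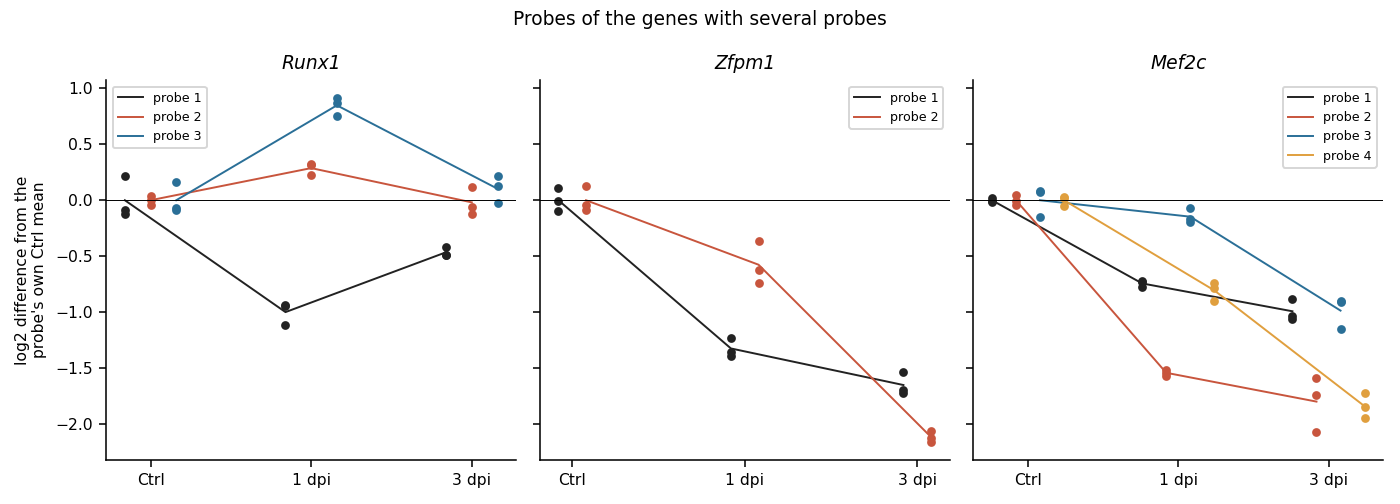
Every probe of Runx1, Zfpm1 and Mef2c as the log2 difference from that probe's own Ctrl mean (dots, arrays; lines, group means of 3). Runx1 probe 1 falls at 1 dpi by 1.001 while probes 2 and 3 rise by 0.29 and 0.85, a rise that median scaling removes for probe 2; the probes of Zfpm1 and Mef2c lie below Ctrl at 3 dpi.

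The ETS factors differed in time course. Fli1 read 3.49, 3.54 and 3.46 in Ctrl, 2.83, 2.92 and 2.88 at 1 dpi and 3.47, 3.42 and 3.35 at 3 dpi. The 1 dpi arrays stood apart below the rest, and at 3 dpi Fli1 overlapped Ctrl. Its log2 fold change was −0.62 ± 0.06 at 1 dpi (limma adjusted p = 0.000138) and −0.08 ± 0.06 at 3 dpi (limma adjusted p = 0.342, interval −0.22 to 0.06). The change from 1 to 3 dpi was 0.53 ± 0.06 (limma adjusted p = 0.000405). Etv6, an ETS repressor, spanned 4.49 to 4.56 in Ctrl, 4.35 to 4.36 at 1 dpi and 4.05 to 4.26 at 3 dpi, in ranges that did not overlap. Its log2 fold change of −0.17 ± 0.07 at 1 dpi missed the adjusted p (limma adjusted p = 0.0618), though 9 of 22 alternatives placed it past, and that of −0.37 ± 0.07 at 3 dpi passed (limma adjusted p = 0.00404).

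Nfe2, the factor of platelet release, spanned 4.78 to 5.02 in Ctrl, 4.43 to 4.60 at 1 dpi and 4.30 to 4.39 at 3 dpi. Its ranges did not overlap, and the lowest values were at 3 dpi. The log2 fold change was −0.37 ± 0.09 at 1 dpi (limma adjusted p = 0.00776) and −0.54 ± 0.09 at 3 dpi (limma adjusted p = 0.00215). Mef2c, a MADS-box factor of megakaryocytes and B cells, read 2.13, 2.16 and 2.12 in Ctrl, 1.36, 1.41 and 1.40 at 1 dpi and 1.25, 1.104 and 1.07 at 3 dpi. These groups were fully separate. The log2 fold change of Mef2c was −0.74 ± 0.06 at 1 dpi (limma adjusted p = 7.14e-05) and −0.99 ± 0.06 at 3 dpi (limma adjusted p = 1.76e-05), just short of 2-fold. The deposited table gave −1.59 and −1.76 for Mef2c. After quantile normalization Mef2c probe 2, described below, had −1.58 and −1.77, against −0.74 and −1.01 for the brightest probe used here.

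The other genes with several probes are shown in the same way, since their probes all had log2 fold changes below 0 against Ctrl but of different size. The Zfpm1 probes lie at chr8:124861053-124861112 and chr8:124861353-124861412, 300 bases apart. For Mef2c, probe 1 is at chr13:83803888-83803947, probe 2 at chr13:83665698-83665757, probe 3 at chr13:83772788-83775025, a span that a 60-base probe can only cover across an intron, and probe 4 at chr13:83668174-83668233, all mm9 and on the plus strand. Probes 2 and 4 of Mef2c are annotated to a single Ensembl transcript, and probes 1 and 3 to RefSeq variants 1 and 2.
Zfpm1 probe 1: tattactgctcttctcacgccgccgagcac
Zfpm1 probe 2: tagagagagtgaaaccttgttcttgctgag
Mef2c probe 1: ttggtatccaccttcatgattttaactgac
Mef2c probe 2: aagcaagtgcatggcaggtaaaatgagttg
Mef2c probe 3: agaggaatagtatgtctcctggtgtaacac
Mef2c probe 4: aaatagcagatcttccattttgtagacctg

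Zfpm1 probe 2 read 0.07, −0.14 and −0.11 in Ctrl, −0.43, −0.69 and −0.80 at 1 dpi and −2.23, −2.19 and −2.12 at 3 dpi. Its groups were fully separate, with most of the fall after 1 dpi, whereas probe 1 had most of its fall by 1 dpi. The log2 fold change of Zfpm1 probe 2 was −0.58 ± 0.11 at 1 dpi and −2.12 ± 0.11 at 3 dpi (limma adjusted p = 0.00285 and 5.08e-06).

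Mef2c probe 3 read −1.29, −1.06 and −1.07 in Ctrl, −1.31, −1.22 and −1.34 at 1 dpi and −2.29, −2.05 and −2.05 at 3 dpi. It overlapped Ctrl at 1 dpi and lay wholly below it at 3 dpi. At 1 dpi Mef2c probe 2 had a log2 fold change of −1.54 ± 0.12 and probe 4 of −0.81 ± 0.08, while probe 3 had −0.15 ± 0.10 (limma adjusted p = 0.227). At 3 dpi probes 2, 3 and 4 of Mef2c had −1.80 ± 0.12, −0.99 ± 0.10 and −1.84 ± 0.08 (limma adjusted p = 1.86e-05, 0.000182 and 2.21e-06). All 4 Mef2c probes were thus lower at 3 dpi, and the mean of the probes placed Mef2c past 2-fold there, at −1.41.

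Set directly against 1 dpi, the 3 dpi arrays split the factors. Past the adjusted p were 5 that were lower at 3 dpi (Gfi1b, Tal1, Zfpm1, Mef2c and Etv6, the last of which missed the adjusted p in 16 of 22 alternatives) and 2 that were higher (Fli1 and Runx1 by its probe 1), where 24.9% of all genes were lower and 19.8% higher. These shares do not set the factors apart. At 2-fold limma called 0 factors, against 4.82% of all genes lower and 3.97% higher. At an unadjusted p under 0.05 in limma there were 7 factors. With the replicate block 14960 of all 29410 genes reached that p, and after quantile normalization 15380 did. The methods' t-test also called 0 factors, and the deposited log2 table called 1. Median scaling left 2 of the 7 past the adjusted p, and turned the sign of the difference for Gata1 (0.07) and Nfe2 (0.02).

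Partners and cofactors of the factors were also more often lower than higher. Of 22 such genes, 13 were lower and 3 higher past the adjusted p at 1 dpi, and 13 were lower and 1 higher at 3 dpi. Their median log2 fold change was −0.30 and −0.25, and limma called 0 lower at either time. With median scaling 17 were lower past the adjusted p at 1 dpi (median −0.62) and 8 at 3 dpi, and the deposited table called 2 and 1 lower. Lmo2, the bridging protein of the TAL1 complex, had −0.35 ± 0.07 at 1 dpi and −0.53 ± 0.07 at 3 dpi (limma adjusted p = 0.00431 and 0.000894). Ldb1, which dimerizes that complex, had −0.17 ± 0.07, which did not pass (limma adjusted p = 0.0703) and was 0.12 in the deposited table and 0.19 by its other probe, and −0.46 ± 0.07 at 3 dpi (limma adjusted p = 0.00185). Cbfb, the partner of RUNX1, had −0.65 ± 0.24 at 1 dpi with an adjusted p of 0.0477 in limma, and its 1 dpi arrays were uneven at 3.57, 2.74 and 3.63. Without Ctrl replicate 1 it did not pass (−0.52, limma adjusted p = 0.121).

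Small MAF proteins pair with NF-E2, and they did not move alike. Mafg, a partner of NF-E2 in megakaryocytes, had log2 fold changes of −0.07 ± 0.05 and −0.09 ± 0.05, neither past the test (limma adjusted p = 0.315 and 0.237). Maff was the 1 gene of the partners that was called with the 75th percentile scaling, with −0.38, −0.62 and −0.55 in Ctrl, 0.78, 0.77 and 0.78 at 1 dpi and 0.06, −0.31 and −0.17 at 3 dpi. The 1 dpi arrays of Maff stood clear above all others. Its log2 fold change at 1 dpi was 1.29 ± 0.11 (limma adjusted p = 5.55e-05), and 0.98 with median scaling, just under 2-fold.

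Paralogs of the factors moved in both directions, with 2 of 21 called lower and 2 higher at 1 dpi and 1 each way at 3 dpi. Their median was 0.04 at 1 dpi and 0.12 at 3 dpi, and the first was 0 with dim genes at their bound, −0.08 after quantile normalization and −0.27 with median scaling. Erg, an ETS factor close to Fli1, read −0.12, 0.00 and −0.04 in Ctrl, −0.17, −0.14 and −0.11 at 1 dpi and −0.98, −1.102 and −0.95 at 3 dpi. Erg overlapped Ctrl at 1 dpi and lay far below it at 3 dpi, with a log2 fold change of −0.96 ± 0.06 (limma adjusted p = 2.35e-05), whereas Fli1 overlapped Ctrl by then. Gata3, the GATA factor of T cells, had 0.04 ± 0.11 at 1 dpi (limma adjusted p = 0.737) and −0.27 with median scaling, and 0.94 ± 0.11 at 3 dpi (limma adjusted p = 0.000420). Gfi1, the paralog of Gfi1b used in granulocytes, had −0.16 ± 0.07 and −0.11 ± 0.07 (limma adjusted p = 0.0886 and 0.256), though after quantile normalization the first passed at −0.26, in the deposited table it was 0.12, and the other probe of Gfi1 had 0.59 at 1 dpi.

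Of the called paralogs, Bach2, a repressor of B cells, had log2 fold changes of −4.11 ± 0.10 at 1 dpi and −2.88 ± 0.10 at 3 dpi. The other probe of Bach2 had −1.59 and −2.01, with the larger fall at 3 dpi. Elf1, an ETS factor of blood cells, had −1.07 ± 0.07 at 1 dpi, and Ets2, another ETS factor, had 1.33 ± 0.06 (limma adjusted p = 1.60e-05 and 2.35e-06). Gata5 had 1.25 ± 0.10 at 1 dpi (limma adjusted p = 5.92e-05). The deposited table gave −0.50 for Elf1 and median scaling 0.93 for Gata5, both under 2-fold. The other probe of Elf1 had −0.53 at 1 dpi. The paralog called higher at 3 dpi was Zfpm2, named after its values were seen. It was well above background on only 1 of 3 Ctrl arrays, so the size is not given, and with normexp background, with or without quantile normalization, it was under 2-fold.

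Of 17 regulators of other blood lineages and of progenitors, 4 were called lower and 1 higher at each time, with a median of −0.30 and −0.59. The deposited table had 7 and 8 called lower, with a median of −0.85 at 1 dpi, and with median scaling 6 and 5, with −0.62 at 1 dpi. Of these 17 genes, 7 also stand in another list. Klf1, the red cell factor that opposes FLI1, read −2.02, −2.33 and −2.46 in Ctrl, −4.25, −4.45 and −4.37 at 1 dpi and −4.04, −3.95 and −3.89 at 3 dpi. Both irradiated groups of Klf1 lay wholly below Ctrl. Its log2 fold change was −2.09 ± 0.12 and −1.69 ± 0.12 (limma adjusted p = 1.01e-05 and 3.04e-05), and the value at 1 dpi was −0.90 with normexp background and −4.36 in the deposited table. Spi1, which encodes the myeloid factor PU.1 that GATA1 antagonizes, had −0.00 ± 0.14 and −0.16 ± 0.14, and its groups overlapped (limma adjusted p = 0.978 and 0.410).

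Stem and progenitor factors were lower. Meis1 had a log2 fold change of −2.24 ± 0.06 at 3 dpi and Hlf of −1.46 ± 0.11 at 1 dpi and −1.85 ± 0.11 at 3 dpi (limma adjusted p = 3.39e-07, 3.86e-05 and 1.22e-05). Myb, which holds progenitors in cycle, had −0.31 ± 0.06 and −0.50 ± 0.06 (limma adjusted p = 0.00484 and 0.000705), though at 1 dpi its 3 probes ran from −0.31 to 0.69 and the deposited table gave 0.61. Mecom was well above background on 2 of 3 Ctrl arrays, and its values did not pass at either time (limma adjusted p = 0.860 and 0.295). Ebf1, the B cell factor, had −2.84 ± 0.08 and −1.62 ± 0.08 at 1 and 3 dpi. The gene called higher at 3 dpi was Tcf7, a T cell factor named after its values were seen, at 1.57 ± 0.09 (limma adjusted p = 8.51e-06).

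Megakaryocyte target genes of the factors were split at 1 dpi and more often higher than lower at 3 dpi. Of 28 genes, 8 were lower and 8 higher past the adjusted p at 1 dpi, and 4 were lower and 14 higher at 3 dpi. Their median log2 fold change was −0.09 and 0.17, or −0.34 and 0.06 relative to all genes. Called were 1 gene at 1 dpi (Myl9) and 2 at 3 dpi (Myl9 and Alox12), all higher. With median scaling Myl9 was under 2-fold at 1 dpi (0.90) and the 1 gene called was lower (Gp1ba), and the deposited table called 4 at 1 dpi, all higher, and at 3 dpi 3 higher and 1 lower (Vwf). With median scaling the 1 dpi balance was 14 lower and 2 higher past the adjusted p, and the median −0.40, while the deposited table gave a median of 0.03. The list holds all 14 megakaryocyte markers, none of which limma called at either time with the 75th percentile scaling. Gp1ba and Vwf, called lower in the settings just given, are among them. Of these markers, 3 were lower and 3 higher past the adjusted p at 1 dpi, and 6 were higher at 3 dpi. At 1 dpi 6 were lower and 3 higher after quantile normalization, and 6 and 1 with median scaling. The deposited table had 7 lower and 3 higher at 1 dpi, with a median of −0.32 against −0.05. The intensities of these markers summed, on the linear scale with each array's 75th percentile at 1, to 138, 124 and 122 in Ctrl, 136, 125 and 123 at 1 dpi and 148, 146 and 144 at 3 dpi, with Pf4 the most intense.

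Single targets show the spread. Pf4, a platelet chemokine driven by GATA1 and ETS factors, read 6.04, 6.02 and 6.02 in Ctrl, 6.23, 6.05 and 6.07 at 1 dpi and 6.05, 6.02 and 6.03 at 3 dpi. Its log2 fold changes were 0.09 ± 0.06 and 0.01 ± 0.06 (limma adjusted p = 0.237 and 0.938), but at 1 dpi it was −0.34 after quantile normalization and in the deposited table, and past the adjusted p in both (limma adjusted p = 0.00256 and 0.00435). Itga2b, which encodes CD41, had 0.69 ± 0.07 at 1 dpi and −0.03 ± 0.07 at 3 dpi (limma adjusted p = 0.000128 and 0.759). Gp9 had 0.47 ± 0.07 and 0.93 ± 0.07 (limma adjusted p = 0.00130 and 5.38e-05), and at 1 dpi median scaling gave 0.15, which did not pass. Myl9, a myosin light chain that RUNX1 regulates, had 1.21 ± 0.08 and 1.77 ± 0.08, and Alox12 had 1.22 ± 0.07 at 3 dpi (limma adjusted p = 2.04e-05, 2.96e-06 and 1.06e-05).

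**Figure D4:**
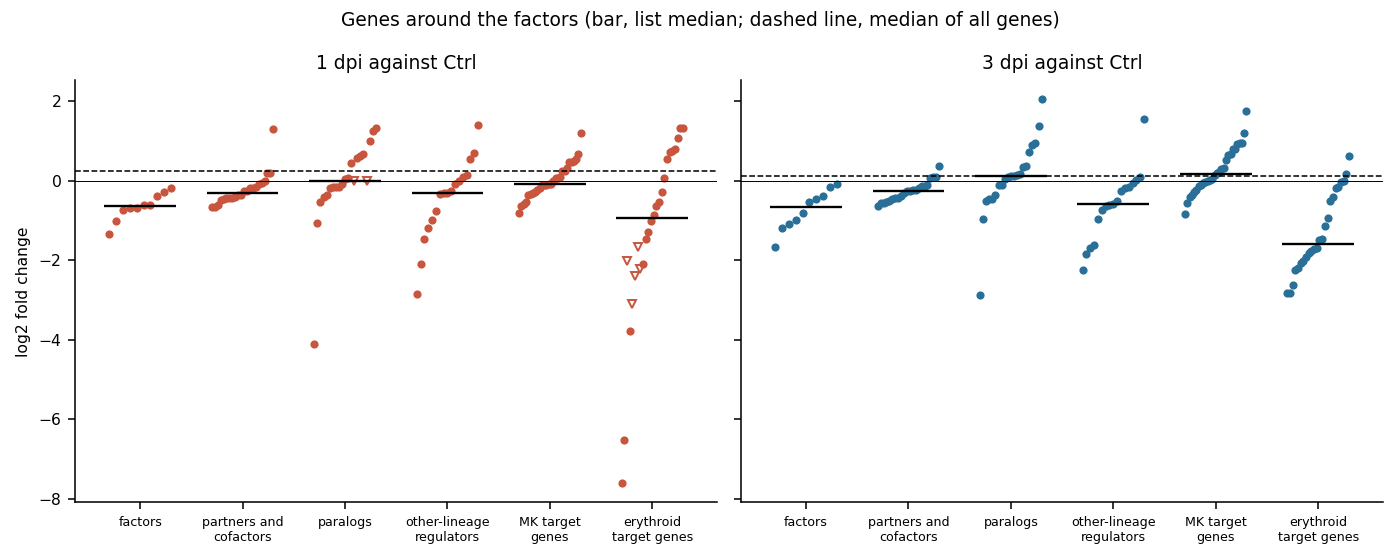
Log2 fold change of each gene at 1 dpi (left) and 3 dpi (right) against Ctrl, for the 10 factors and for genes around them; dots are genes, bars list medians, the dashed line the median of all genes, and open triangles genes not well above background in a group, drawn at their bound. The factors lie below 0 at both times, megakaryocyte (MK) target genes around 0 (median −0.09 and 0.17) and erythroid target genes lowest (median −0.94 and −1.58). With normexp background the erythroid target median at 1 dpi was −0.35, above the −0.69 of the factors.

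Erythroid target genes of GATA1 and KLF1 were more often lower than higher. Of 24 genes, 16 were lower and 7 higher past the adjusted p at 1 dpi, and 17 lower and 1 higher at 3 dpi. Of the same 24, 12 were called lower and 3 higher at 1 dpi, and 15 lower and 0 higher at 3 dpi. Their median log2 fold change was −0.94 and −1.58. At 1 dpi the size differed between settings: with normexp background 5 were called lower and the median was −0.35, while in the deposited table it was −1.89. Ahsp, the α-globin chaperone, had −7.62 ± 0.18 at 1 dpi and −2.63 ± 0.18 at 3 dpi, and Slc4a1, the band 3 anion exchanger, had −3.78 ± 0.12 and −2.21 ± 0.12. The genes called higher at 1 dpi were the globins Hba-a1, Hba-a2 and Hbb-b1, with Hba-a2 at 1.34 ± 0.12 and then −1.47 ± 0.12. Only Hbb-b1 was still called higher at 1 dpi after quantile normalization, with or without normexp, and in the deposited table, where Hba-a2 was 0.71, 0.71 and 0.70. At 3 dpi Rhd had −2.82 ± 0.17 and Alas2, the first enzyme of haem synthesis, −2.26 ± 0.12 (limma adjusted p = 1.31e-05 and 7.80e-06).

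Markers of other cells differed between the groups as well. Of 16 erythroid markers, all of which are in the erythroid target list, 10 were called lower and 3 higher at 1 dpi and 14 lower at 3 dpi. With normexp background 4 were called lower at 1 dpi. In all, 5 were well above background on 0 of 3 arrays at 1 dpi, Trim10, Epb42 and Rhag among them, and have only bounds there. Rhd was well above background on 2 of 3 arrays at 1 dpi and Epb42 on 2 of 3 at 3 dpi. The summed erythroid level was 228, 192 and 202 in Ctrl, 514, 420 and 411 at 1 dpi and 73.7, 74.1 and 68.6 at 3 dpi, led by Hba-a1. The sum was highest at 1 dpi, where Hba-a1, Hba-a2 and Hbb-b1 were higher, Alas2 had 0.72 ± 0.12, Hbb-bt overlapped Ctrl at 0.08 ± 0.11 and 10 of 16 markers were lower. Of 12 B cell markers 10 were called lower at 1 dpi and 9 at 3 dpi, and their sum was 37.5, 36.1 and 36.6 in Ctrl, 9.52, 9.30 and 9.44 at 1 dpi and 11.0, 10.3 and 10.5 at 3 dpi, led by Cd79b. Of 10 stem and progenitor markers 4 and 5 were called lower, and their sum was 55.0, 53.7 and 52.4 in Ctrl, 39.4, 39.3 and 39.9 at 1 dpi and 24.3, 23.6 and 22.8 at 3 dpi, led by Cd34. These are cells that also use Gata1, Tal1, Gfi1b, Zfpm1, Gata2 or Mef2c, and their part in the changes of the factors was not tested.

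Mast cell, macrophage and stromal markers were more often higher than lower after IR. Of 10 mast cell and basophil markers 7 were called higher at 1 dpi and 4 at 3 dpi, and their sum was 163, 145 and 138 in Ctrl, 449, 453 and 444 at 1 dpi and 287, 272 and 263 at 3 dpi, led by Prss34. Mcpt4 was well above background on 2 of 3 Ctrl arrays. Of 12 macrophage markers 4 were called higher and 1 lower (Cd163) at 1 dpi, and 9 higher at 3 dpi. Their sum was 70.1, 61.8 and 59.9 in Ctrl, 85.7, 80.6 and 84.6 at 1 dpi and 163, 159 and 155 at 3 dpi, led by Csf1r. Of 13 stromal markers 9 were called higher at each time, with sums of 10.6, 10.2 and 10.68 in Ctrl, 51.8, 44.5 and 48.6 at 1 dpi and 97.9, 89.3 and 96.5 at 3 dpi, led by Cxcl12. The sums of macrophages and stroma were highest at 3 dpi. That of mast cells was highest at 1 dpi, but from 1 to 3 dpi 4 of its 10 genes were lower and 1 higher past the adjusted p of limma, and 1 was lower and 2 higher after quantile normalization.

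Endothelial markers had 4 and 6 of 10 called higher, with sums of 10.9, 9.52 and 9.51 in Ctrl, 17.6, 16.4 and 16.04 at 1 dpi and 23.2, 20.3 and 20.8 at 3 dpi. They were led by Vwf, which megakaryocytes also express, and Flt4 was well above background on 2 of 3 arrays in Ctrl and at 1 dpi. Neutrophil and monocyte markers turned with the scaling. At 1 dpi 2 of 12 were called higher, with a median of 0.52 and sums of 1275, 1337 and 1320 in Ctrl, 2186, 2044 and 2019 at 1 dpi and 1412, 1270 and 1338 at 3 dpi, led by Mpo. After quantile normalization and in the deposited table limma called 0 of them at 1 dpi, with 5 lower and 3 higher past the adjusted p and medians of −0.07 and −0.16. T and NK cell markers had 1 and 3 of 11 called higher, with sums of 30.8, 32.6 and 31.1 in Ctrl, 44.7, 41.7 and 41.9 at 1 dpi and 37.7, 34.1 and 33.3 at 3 dpi, led by Nkg7. The part of these cells in the values of the factors was not tested either.

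Ctrl replicate 1 was alone on its slide, while the other 8 arrays shared one, and it was the highest Ctrl array for 6 of the 10 factors. Within the shared slide, which equals the fit with slide as a block, the count past the adjusted p was 9 at 1 dpi and 8 at 3 dpi, as with all arrays. Called were 1 and 3 factors, Runx1 being the one lost at 1 dpi, and the medians were −0.59 and −0.58. On that slide the 1 dpi arrays and 3 dpi replicate 3 lay in row 2 and the other 4 arrays in row 1, and an effect of row was not tested.

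Genes with the most similar course over the 9 arrays were taken from 24005 others by the root mean square difference of centred log2 values. For Gata1 they were Vezf1 (0.04), Txnrd3 (0.06) and Tmem107 (0.06), and for Fli1 Uimc1, Ska3 and Prorsd1 (each 0.04). For Gata2 they were Fancg, Nipal3 and Cherp (each 0.03), and for Mef2c Tfdp2 (0.05), AK140583 (0.06) and Gimap1 (0.06). For comparison, the root mean square of the centred values themselves was 0.36 for Gata1, 0.28 for Fli1, 0.13 for Gata2 and 0.42 for Mef2c. Each of these genes thus repeats the 3-step pattern of a factor closely, among very many genes that could.

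The promoters were read because several of these genes moved together and are known to bind each other's control regions. RefSeq promoters of the build GRCm38.p6 were found for 8 of the 10 factors, 13 promoters in all, and Fli1 and Nfe2 have none in the table used. In the 250 bases before each start, on both strands, the GATA motif (AGATAA or TGATAA) was found in 2 of 13 promoters, or 15.4%, against 16.6% of all 32851 promoters. The ETS core GGAAG was in 7, or 53.8%, against 64.1%, and the E-box (CAGCTG or CAGATG) in 1, or 7.69%, against 25.5%. The RUNX motif TGTGGT was in 0, against 4614 of 32851, and the NF-E2 motif TGAGTCA in 0, against 4.46%. These shares are near or under those of all promoters. The GATA motif was in the promoter of Gfi1b (chr2:28621983-28622232, minus strand) and at 1 of 2 starts of Tal1 (chr4:115056176-115056425, plus strand), but not in that of Zfpm1, which was also called lower at 3 dpi. The matches are shown in capitals.
Gfi1b promoter: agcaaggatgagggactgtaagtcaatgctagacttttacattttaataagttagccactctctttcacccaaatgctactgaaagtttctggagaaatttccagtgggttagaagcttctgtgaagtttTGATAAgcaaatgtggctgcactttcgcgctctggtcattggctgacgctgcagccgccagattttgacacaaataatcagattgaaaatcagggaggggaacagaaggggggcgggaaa
Tal1 promoter: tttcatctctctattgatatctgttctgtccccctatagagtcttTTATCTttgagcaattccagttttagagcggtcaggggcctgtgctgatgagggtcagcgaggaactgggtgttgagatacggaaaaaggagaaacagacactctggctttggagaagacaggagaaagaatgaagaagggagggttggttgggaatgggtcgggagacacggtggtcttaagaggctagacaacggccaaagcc
In Gfi1b the motif begins 120 bases before the start, and in Tal1 it begins 205 bases before it and reads AGATAA on the other strand. A match of letters is a description of the window and says nothing of binding.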

How the data were processed

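The authors deposited spot intensities from Agilent Feature Extraction 10.7.1.1 (named in the submitters' processing notes) and a table of log2 values per gene and array, whose making is not stated. The paper's methods name another array type, so its labelling steps were not applied here. Control spots and outlier spots were left out, and spots of a probe were averaged. The log2 intensity minus each array's 75th percentile was used. A probe was kept when every array of some group had it well above background (44300 probes), and the brightest stood for its gene. RefSeq accessions of GRCm38.p6 named 32984 probes, and 23601 kept the array's name. Groups were fitted together with limma 3.58.1 in R 4.3.3. Lists are described by counts and medians.

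Of partners, paralogs, other-lineage regulators and target genes, the 4 called genes with the largest change against Ctrl at each time were named if well above background on every array compared, beside genes chosen to be named whatever their values (some are left out here) and the 3 genes most like each of Gata1, Fli1, Gata2 and Mef2c. For a gene well above background on 0 arrays of a group, the bound sets the other group's mean against each dim array's own value or, if higher, the lowest signal there that was well above background. Same-numbered samples were not paired by the labels. The members and lists were chosen with earlier results of these data known. Alternatives changed the scaling, background, filter, probe rule, values, block, test and arrays used. No deposited column with a value for each sample stayed unread.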

Additional observations from a re-analysis of the deposited data

Results flagged for a closer look

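The effect of IR differed between 1 and 3 dpi for 7 of the 10 factors by the limma contrast of both times, where 24.9% of all genes were lower and 19.8% higher, and median scaling left only Fli1 and Runx1 past the adjusted p. The log2 difference, 3 against 1 dpi, was 0.53 for Fli1 and 0.54 for Runx1 (probe 1), whose falls were smaller at 3 dpi. It was −0.59 for Gfi1b, −0.40 for Tal1, −0.33 for Zfpm1, −0.25 for Mef2c and −0.20 for Etv6, whose values fell further. Over all alternatives it ran from −1.49 to −0.14 for Zfpm1 and from −0.60 to −0.06 for Mef2c. The mean of the Runx1 probes gave −0.17, the opposite sign.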

How the results depend on the processing

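Of the comparisons of single factors under 22 alternatives, 611 kept direction and side of the adjusted p, 13 gained it, 32 lost it and 4 turned sign. The sign turned for Runx1 with the mean of its probes, at 0.0452 for 1 dpi against Ctrl and −0.17 for 3 against 1 dpi, and for Gata1 (0.0656) and Nfe2 (0.0233) from 1 to 3 dpi with median scaling. The number called at 1 dpi was 1 after quantile normalization, after normexp with quantile normalization, in the deposited table and with slide as a block, 0 with the mean of probes and 3 with median scaling. At 3 dpi it was 4 after quantile normalization, with median scaling, with the mean of probes and in the deposited table. Of all 29410 genes, 1512, 2087 and 711 were called lower at 1 dpi in the first 3 of these settings, in that order. At 3 dpi 693, 738 and 490 were. The deposited table called 1824 and 817 of 21694 lower at 1 and 3 dpi. Median scaling moved the factors' median to −0.96 at 1 dpi, −0.79 at 3 dpi and 0.0062 from 1 to 3 dpi, where 2 factors passed. At 3 dpi the median was −0.77 after quantile normalization, −0.78 after normexp with it, −0.77 in the deposited table and −0.58 with slide as a block, and from 1 to 3 dpi the deposited table called 1. The causes were not tested. Leaving out each array in turn gave 1 to 2 called at 1 dpi, 3 to 4 at 3 dpi and 0 between these times in limma, where 7 factors had an unadjusted p under 0.05. Of all 29410 genes, 13230 to 18866 reached that p between these times with an array left out. For the factors, leaving out an array gave 8 to 10 past the adjusted p at 1 dpi, 8 at 3 dpi and 4 to 7 between them. Their medians were −0.67 to −0.59, −0.72 to −0.58 and −0.23 to −0.15. The replicate block gave 2, 3 and 0 called, 9, 8 and 6 past the adjusted p, and medians of −0.64, −0.67 and −0.18. Scan date was not run as a block, since the only scan with several arrays is the shared slide. Signal over background limits the dim probes, and Ctrl replicate 1 had the fewest spots well above it, 69.1%.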
